A study of Homo sapiens with 6 samples.

Results

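The genes described are 10 genes whose products build or control the actin-myosin contractile apparatus, most of them known from smooth muscle, ACTA2, TAGLN, CNN1, TPM1, TPM2, MYL9, MYL2, MYLK, CALD1 and LMOD1. The members were selected on what an earlier look at this same contrast showed of their counts, and were taken by symbol from the 58884 genes of a count table and all 10 were found. The cells were DLD1, a human colorectal cancer line with a helical-domain mutation of PIK3CA, cultured without a treatment named in the labels. RNA-seq compared 3 libraries of parental cells with 3 libraries of p85β KR-AA cells, in which the substitutions K477A and R478A were knocked into the nuclear localization sequence of p85β, the regulatory subunit of PI3K encoded by PIK3R2. By their labels both groups share the DLD1 background. The study derived a pair of independent KR-AA clones with CRISPR, and the library labels name no clone. The source name of 2 KR-AA libraries gives R479A or R480A in place of R478A, whereas the title and genotype of all 3 give R478A. Nothing in the labels says that the libraries of a group came from separate cultures, so that the spread between them may be technical.

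In smooth muscle, force comes from myosin II pulling on actin filaments, and myosin is switched on when myosin light chain kinase phosphorylates the regulatory light chain. Tropomyosin, caldesmon and calponin lie along the actin filament and tune its access to myosin, while leiomodin starts new filaments. Many of these genes are targets of serum response factor (SRF), which binds the CArG box in their promoters, with myocardin or the myocardin-related transcription factors as its partners. Epithelial cells use non-muscle members of the same families for their cortical and junctional actin.

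The promoters are shown because the CArG box ties members of this family to SRF. RefSeq windows from 250 bases before to 50 bases after a transcription start (GRCh38.p14) were at hand for 7 of the 10 genes, 12 windows in all, and none for TAGLN, MYL9 and MYL2. A CArG box (CC, then 6 bases that are each A or T, then GG, which reads the same on both strands) was found in 1 of the 12 windows, that of MYLK, and in 1.29% of all 35116 windows of the same length. A CArG-like box with 1 G or C among the 6 core bases was found in 2 of the 12 windows, of ACTA2 and CALD1, and in 6.94% of all windows. The MCAT element (CATTCC on either strand), a muscle element bound by TEAD factors whose CC can be shared with the start of a CArG box, was in 5 of the 12 windows and in 14.0% of all windows. Such matches describe letters and not bound sites. The 250 bases before the start are given 5′ to 3′ for the 3 windows with a CArG or CArG-like box (in capitals), and for 1 of the windows of TPM2, the most abundant member in parental cells, which held neither.
ACTA2, chr10:88952774-88953023, minus strand: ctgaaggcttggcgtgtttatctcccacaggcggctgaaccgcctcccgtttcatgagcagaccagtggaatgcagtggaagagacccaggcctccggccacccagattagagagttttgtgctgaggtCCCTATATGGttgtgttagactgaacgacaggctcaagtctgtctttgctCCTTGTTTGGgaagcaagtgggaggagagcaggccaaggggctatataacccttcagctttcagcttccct
MYLK, chr3:123620549-123620798, minus strand: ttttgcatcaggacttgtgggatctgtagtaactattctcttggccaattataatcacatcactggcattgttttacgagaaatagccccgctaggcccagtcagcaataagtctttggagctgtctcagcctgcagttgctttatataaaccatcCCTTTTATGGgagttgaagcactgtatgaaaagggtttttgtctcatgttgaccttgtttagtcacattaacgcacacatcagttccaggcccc
CALD1, chr7:134711249-134711498, plus strand: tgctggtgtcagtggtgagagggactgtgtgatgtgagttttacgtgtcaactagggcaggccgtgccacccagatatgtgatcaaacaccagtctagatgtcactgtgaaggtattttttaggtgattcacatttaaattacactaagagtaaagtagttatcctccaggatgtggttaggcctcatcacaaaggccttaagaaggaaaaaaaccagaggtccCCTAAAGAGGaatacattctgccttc
TPM2, chr9:35689926-35690175, minus strand: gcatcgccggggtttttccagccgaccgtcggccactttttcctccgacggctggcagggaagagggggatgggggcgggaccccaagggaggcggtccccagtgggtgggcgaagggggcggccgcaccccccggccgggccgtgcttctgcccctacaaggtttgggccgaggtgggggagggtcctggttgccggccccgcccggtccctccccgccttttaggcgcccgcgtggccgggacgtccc
The boxes of ACTA2 start 121 and 71 bases before the transcription start, that of MYLK 94 bases and that of CALD1 26 bases.

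Some facts of the whole table bear on all values. Totals lay between 20301396 and 26712816 counts per library. Levels between libraries are in CPM with TMM factors, and the floor of 3 counts that a library needs for detection was worth 0.0817 to 0.218 CPM. The TMM factors were 0.677 to 0.777 in parental and 1.35 to 1.41 in KR-AA libraries, and scaling by library totals instead raises the median log2 value over all genes by 0.92. Across 16059 tested genes, 28.6% were called higher and 17.6% lower in KR-AA cells (fold change of at least 3 and adjusted p under 0.01, edgeR quasi-likelihood test), and fold changes rose with gene length, from a median log2 value of -1.12 in the shortest 10% of genes to 2.25 in the longest 10%. PIK3R2 itself had 524.14, 169.29 and 312.96 counts in parental and 503.15, 475.99 and 124.51 in KR-AA libraries, and counts cannot show the knocked-in bases. RPS4Y1, a ribosomal protein gene of the Y chromosome, had 0 counts in all parental libraries and 4656.11 to 6696 in KR-AA libraries, and whether both groups are the same cell line was not tested.

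The members did not move as a block. As they were chosen by this contrast, their values and calls are a description, and no p-value is read as evidence for them. A call only places a member by the thresholds used for all genes. Of the 10 genes, 9 passed the filter on low counts and CNN1 did not. Of these 9, 1 was called higher (CALD1) and 4 were called lower (TAGLN, TPM2, MYL9 and MYL2), beside the 28.6% and 17.6% over all genes, and nothing is read from these shares. ACTA2, TPM1, MYLK and LMOD1 were not called. Groups did not overlap for 9 of the 10 genes, 4 higher and 5 lower in KR-AA libraries, beside 47% and 36.5% of all tested genes. The median log2 fold change of the members was -0.05 against 0.32 over all genes.

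**Figure D1:**
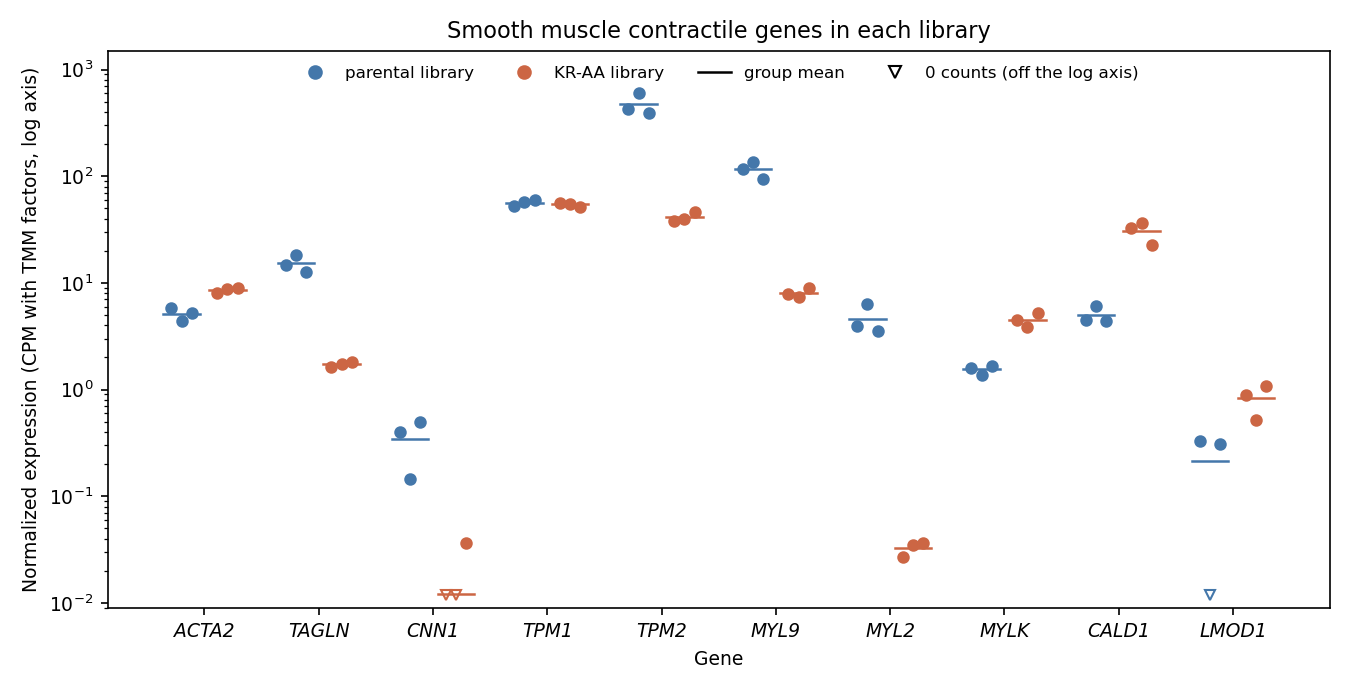
Each point is a library, on a log axis of CPM with TMM factors, for the 3 parental (left of each gene) and 3 KR-AA libraries (right); bars are group means and open triangles are libraries with 0 counts. TPM2, MYL9, TAGLN and MYL2 lie lower and CALD1 higher in all KR-AA libraries, and the groups overlap for TPM1, whose direction depends on the scaling.

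Actin and its filament nucleator come first. ACTA2, smooth muscle alpha-actin (ENSG00000107796, chromosome 10 of GRCh37, 90694831 to 90751096, minus strand), stood at 5.77, 4.37 and 5.24 CPM in parental and 7.98, 8.80 and 8.99 CPM in KR-AA libraries. All KR-AA libraries lay above all parental ones, and the log2 fold change was 0.742 ± 0.198 (SE), under the 3-fold threshold. With library totals it was 1.66 and with an offset for gene length 1.75, both called higher. ACTA2 shares 380 exonic bases with FAS on the opposite strand, and the library kit does not mark strand. Shared bases, here and below, are over all exons in GENCODE 44, which may not be the annotation used for counting. They can exceed the deposited length, which is 1349 bases for ACTA2. FAS itself had 1.46 ± 0.699 CPM in parental and 4.03 ± 1.12 CPM in KR-AA cells (SD, n = 3 each), and its part in the ACTA2 value was not tested. The antisense gene ACTA2-AS1 shares 1638 exonic bases, with 0 counts in all parental libraries and 10.26, 4.18 and 5.15 in KR-AA libraries. On the same strand, ENSG00000286116 shares 401 bases, with 5.2, 3.03 and 2.2 counts in parental and 6.59, 11.17 and 5.59 in KR-AA libraries. The part of these genes was not tested either.

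Within the actins, ACTA2 was a trace. It made up 0.109%, 0.103% and 0.108% of the actin counts per kilobase in parental libraries and 0.256%, 0.316% and 0.265% in KR-AA libraries. The cytoplasmic actins ACTB and ACTG1 took nearly all the rest, with ACTB at 35.2% ± 2.01 in parental and 47.8% ± 0.397 in KR-AA cells (SD, n = 3 each). ACTB, ACTG1 and ACTA2 have similar coding sequences, and fractional counts such as 86.93 for ACTA2 in a parental library show that reads were divided between genes. LMOD1, leiomodin 1 of smooth muscle (ENSG00000163431, chromosome 1, 201865584 to 201915676, minus strand), had 5, 0 and 5 counts in parental and 33, 15 and 30 in KR-AA libraries. These are low levels but did not overlap. The log2 fold change was 1.90 ± 0.614, and the adjusted p missed the threshold. LMOD1 was called higher without KR-AA replicate 2 (log2 fold change 2.15), and also with library totals (2.79), without a filter (1.94) and with length and GC content offsets (2.29).

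The tropomyosins wrap the actin filament, and of the 2 members among them TPM2 was called lower and TPM1 was not called. TPM2, beta-tropomyosin (ENSG00000198467, chromosome 9, 35681989 to 35690053, minus strand), stood at 423.1, 605.5 and 392.6 CPM in parental and 38.0, 39.7 and 46.2 CPM in KR-AA libraries. Every KR-AA library was far below every parental one, at an 11.5-fold lower level (log2 fold change -3.52 ± 0.184). The log2 value was -2.58 with library totals, -2.52 with the length offset and -1.72 with length and GC content offsets, and the call held in each. TPM1, alpha-tropomyosin (ENSG00000140416, chromosome 15, 63334819 to 63364114, plus strand), had 52.6, 57.2 and 60.1 CPM in parental and 56.6, 55.0 and 51.9 CPM in KR-AA libraries. These groups overlapped, with a log2 fold change of -0.05 ± 0.128 that became 0.87 with library totals, 0.67 with the length offset and 0.04 with length and GC content offsets.

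A share within a family does not depend on a factor that scales a whole library. Offsets for length and GC content differ between genes, and were not applied to the shares. TPM2 made up 52.2%, 54.3% and 43.7% of the tropomyosin counts per kilobase in parental libraries and 6.26%, 6.36% and 7.60% in KR-AA libraries. TPM4, a non-muscle tropomyosin, was 37.7% ± 4.16 in parental and 73.2% ± 0.952 in KR-AA cells, TPM3 7.50% ± 1.33 and 13.2% ± 0.421, and TPM1 4.72% ± 0.656 and 6.88% ± 0.313. TPM2 was thus the leading tropomyosin gene of parental libraries and TPM4 that of KR-AA libraries, by counts per kilobase. Counts are per gene, so that muscle and non-muscle isoforms of a gene cannot be told apart. Without the division by length, TPM2 was 37.9% of tropomyosin counts in parental and 4.29% in KR-AA cells. Neither TPM3 (log2 fold change 0.22 ± 0.123) nor TPM4 (0.34 ± 0.142) was called.

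**Figure D2:**
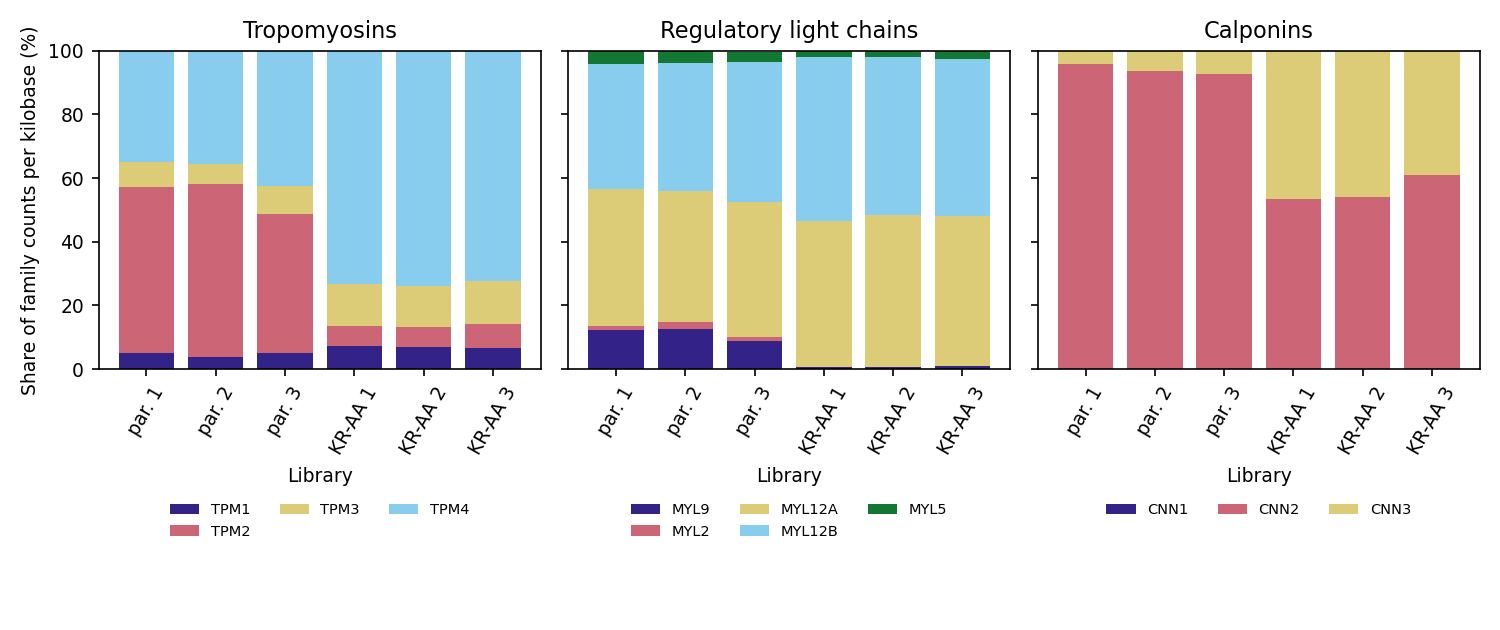
Stacked bars give each gene's share (%) of the counts per kilobase of its family, for tropomyosins, regulatory light chains and calponins, with a bar for each parental (par.) and KR-AA library. TPM2 falls from 43.7% or more of tropomyosin in parental libraries to 7.60% or less in KR-AA libraries, MYL9 from 8.95% or more to 1.1% or less, and CNN1 is too rare to see; light chains that stay under 0.5% in every library are left out.

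Both member regulatory light chains, the myosin subunits that are phosphorylated to start contraction, were called lower. MYL9, the light chain of smooth muscle and non-muscle myosin II (ENSG00000101335, chromosome 20, 35169900 to 35179850, plus strand), stood at 117.8, 135.1 and 95.2 CPM in parental and 7.88, 7.34 and 8.99 CPM in KR-AA libraries. The groups lay 14.4-fold apart (log2 fold change -3.85 ± 0.174), whereas the median over the 1715 tested genes within 10% of its length of 2786 bases was 0.13 on the log2 scale. For MYL9 that value was -2.91 with library totals and -2.44 with length and GC content offsets, and it was still called lower. MYL2, the light chain of slow skeletal and ventricular muscle (ENSG00000111245, chromosome 12, 111348623 to 111359247, minus strand), had 59, 88 and 58 counts in parental libraries and 1 count in each KR-AA library. The summed counts of 205 and 3, scaled to library size with TMM factors, gave a ratio of 141. The 95% exact interval was 47.6 to 689, which covers counting error only.

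With TMM scaling the ubiquitous light chains had nearly equal means. MYL12A had 140.6 CPM in parental and 135.7 CPM in KR-AA cells (log2 fold change -0.05 ± 0.123), and MYL12B had 156.1 and 166.6 CPM (0.09 ± 0.137). Neither was called. The sign of MYL12A turned with library totals (0.87) and with the length offset, and that of MYL12B with DESeq2. MYL9 went from 11.3% ± 2.02 of regulatory light chain counts per kilobase in parental to 0.904% ± 0.172 in KR-AA cells, and MYL2 from 1.54% ± 0.465 to 0.0127% ± 0.00296. Without the division by length, MYL9 was 27.2% ± 4.17 and 2.59% ± 0.486 of these counts. MYL12A and MYL12B together with MYL5 took nearly all the rest in both groups.

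MYLK, the kinase that phosphorylates these light chains (ENSG00000065534, chromosome 3, 123328896 to 123603179, minus strand), went the other way, with 24, 19 and 27 counts in parental and 164, 110 and 145 counts in KR-AA libraries. In CPM these were 1.59, 1.38 and 1.66 against 4.47, 3.83 and 5.28, with no overlap. Its log2 fold change of 1.54 ± 0.252 was just under the 3-fold threshold. It was close to the median of 1.58 of the 1108 tested genes within 10% of its length of 5745 bases, and with the length offset it was 0.39. Without KR-AA replicate 2 it was 1.66 and called higher. MYLK was also called higher with library totals (2.46), without a filter (1.59) and with at least 10 counts in every library (1.74). MYLK shares 612 exonic bases with the antisense gene MYLK-AS1. That gene had 7, 7 and 17 counts in parental and 8, 3 and 2 in KR-AA libraries, and its part in the MYLK value was not tested.

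The actin-binding regulators split by gene. CALD1, caldesmon, which holds myosin off the filament (ENSG00000122786, chromosome 7, 134429003 to 134655480, plus strand), stood at 4.51, 6.04 and 4.44 CPM in parental and 32.9, 36.1 and 22.9 CPM in KR-AA libraries. Each KR-AA library was above each parental one, 6.14-fold on average (log2 fold change 2.62 ± 0.222). The 1229 tested genes within 10% of its length of 5011 bases had a median of 1.33 on the log2 scale. With the length and GC content offsets the value was 1.00 and no longer called. TAGLN, transgelin or SM22 alpha (ENSG00000149591, chromosome 11, 117070086 to 117078180, plus strand), fell from 14.8, 18.3 and 12.7 CPM in parental to 1.64, 1.74 and 1.82 CPM in KR-AA libraries. It was 8.80-fold lower (log2 fold change -3.14 ± 0.22), and with the length and GC content offsets the log2 value of -1.45 was no longer called.

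TAGLN shares 2233 exonic bases with PCSK7 on the opposite strand, which had 918.11 to 1547.84 counts per library against 49.6 to 252.41 for TAGLN, so that reads of the shared part could not be assigned with certainty. PCSK7 was 86.1 ± 15 CPM in parental and 34.8 ± 2.82 CPM in KR-AA cells (SD, n = 3 each), a smaller ratio than that of TAGLN, and its part in the TAGLN value was not tested. The overlap with PCSK7 and that given next are over all annotated exons and exceed the deposited TAGLN length of 1477 bases. On the same strand, TAGLN shares 2498 exonic bases with ENSG00000280143. That gene had 13.95, 25.03 and 11.19 counts in parental and 37.97, 36.69 and 30.63 in KR-AA libraries, and its part was not tested either. CNN1, calponin of smooth muscle (ENSG00000130176, chromosome 19, 11649582 to 11661138, plus strand), was barely detected, with 6, 2 and 8 counts in parental and 0, 0 and 1 counts in KR-AA libraries. The summed counts of 16 and 1, scaled to library size with TMM factors, gave a ratio of 33 (95% exact interval 5.13 to 1380). CNN2 was the main calponin of parental cells, at 94.0% ± 1.53 of calponin counts per kilobase, and CNN3 went from 5.89% ± 1.52 there to 44% ± 4.17 in KR-AA cells. TAGLN2 was over 97% of the transgelin counts per kilobase in every library. By log2 fold change TAGLN2 (-1.79 ± 0.136) and CNN2 (-2.08 ± 0.136) were called lower, and CNN3 (1.58 ± 0.162) was not called. Neither lower call held with library totals or with length and GC content offsets. CNN3 was called higher with library totals (2.50) and with the length offset (2.19).

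Ordered by level per length (CPM per kilobase), TPM2 led in parental cells at 340 ± 82.7, followed by MYL9 at 41.6 ± 7.19, TPM1 at 31.4 ± 2.11, TAGLN at 10.3 ± 1.93, MYL2 at 5.74 ± 1.91 and ACTA2 at 3.80 ± 0.527. CALD1, MYLK, CNN1 and LMOD1 were at or under 0.997. In KR-AA cells TPM1 at 30.3 ± 1.32 and TPM2 at 29.7 ± 3.11 led and overlapped, and ACTA2 at 6.37 ± 0.396 and CALD1 at 6.11 ± 1.38 came next and overlapped as well. MYL9 was at 2.90 ± 0.303 and TAGLN at 1.17 ± 0.0628, and the other members were at or under 0.788. All other neighbours in either order had libraries that did not overlap, except MYLK and CNN1 in parental cells.

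Between libraries of a group the members varied less than between groups where they were called. TPM2, MYL9, TAGLN, MYL2 and CALD1 were each highest in parental replicate 2 and lowest in replicate 3, although the numbers carry no order. The coefficient of variation was 24.3% for TPM2 and 17.3% for MYL9 in parental libraries, and 10.5% and 10.4% in KR-AA libraries. CALD1 was the most variable called member in KR-AA libraries, at 22.6%, with replicate 3 lowest.

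**Figure D3:**
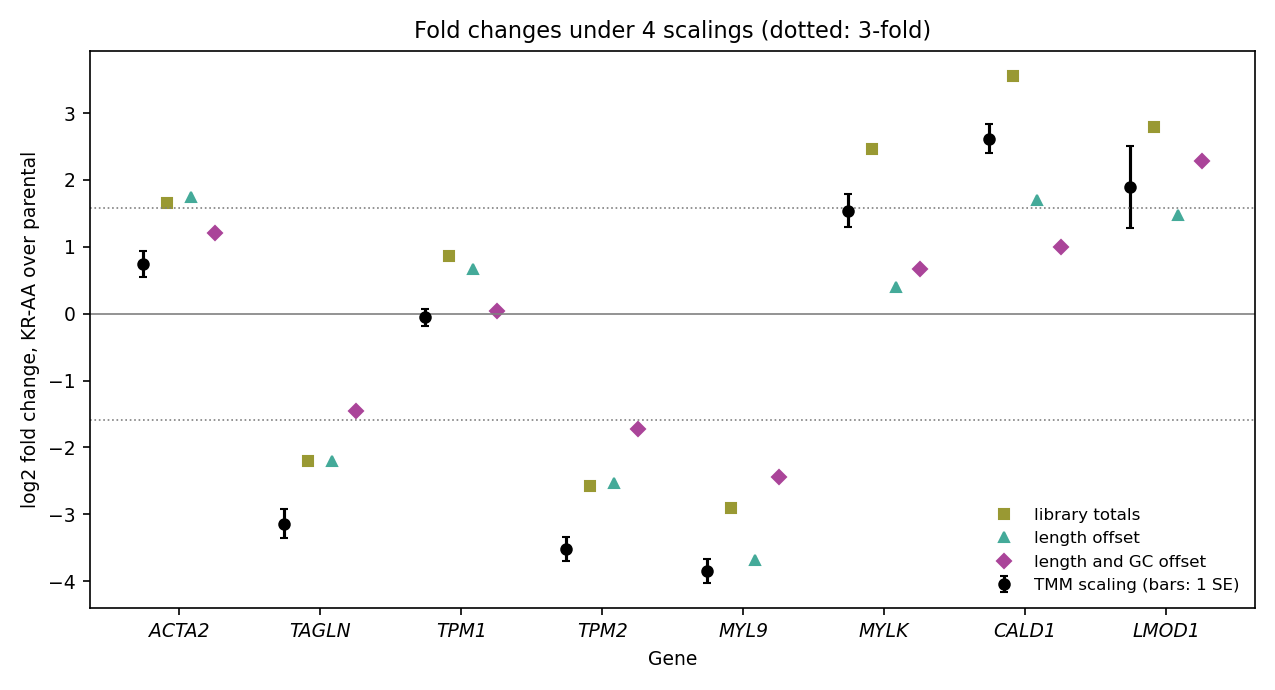
Log2 fold changes (KR-AA over parental) of 8 members under TMM scaling (black, bars are 1 SE), library totals, a gene length offset, and a length and GC content offset; dotted lines mark 3-fold. TPM2 and MYL9 stay below the lower line throughout, TAGLN and CALD1 cross to within it with the length and GC content offset, TPM1 changes sign with library totals and both offsets; CNN1 was not tested and MYL2, with 1 count in each KR-AA library, is not drawn.

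The members called lower were shorter than CALD1, the member called higher. TAGLN, TPM2 and MYL2 have deposited lengths of 807 to 1477 bases, MYL9 one of 2786 bases and CALD1 one of 5011 bases. The median log2 value was -0.77 over genes within 10% of the length of TPM2 and -0.75 over those near TAGLN, so that both members lay well below their length class. ACTA2, at 1349 bases, lay above the median of -0.80 of genes like it in length. LMOD1, at 3927 bases, was above its class at 1.90 against 0.74. These classes are not matched for GC content, which was 57.2% for TAGLN, 57.8% for TPM2, 60.5% for MYL9, 51.8% for MYL2 and 44.1% for CALD1. Adding GC content to the length offset moved TPM2 from -2.52 to -1.72, TAGLN from -2.20 to -1.45 and MYL9 from -3.69 to -2.44. MYL2 went from -5.64 to -5.71. Length and GC content cannot be told apart from other differences between the groups in these libraries.

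The rest of the contractile apparatus also moved in both directions. A list of 73 further genes was drawn up by role and 52 of them could be tested, of which 14 were called higher and 14 lower, or 26.9% each, beside 28.6% and 17.6% of all genes. Its median log2 fold change was -0.26 against 0.32 over all genes. The list too was drawn up with earlier results of these data known, so its calls are a description. With DESeq2 13 were higher and 16 lower, of which 13 and 14 were among those called by edgeR. With library totals 14 of the 14 higher calls remained but only 4 of the 14 lower ones, and with the length and GC content offsets 4 and 5.

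Among the myosin II heavy chains, the motors themselves, 2 of 4 were called higher and 1 lower, beside 28.6% and 17.6% of all tested genes. MYH10, the heavy chain of non-muscle myosin IIB, rose from 9.56 to 60.1 CPM (log2 fold change 2.65 ± 0.175). MYH11, that of smooth muscle, rose from 2 to 3 counts per parental library to 18.01 to 30.01 counts per KR-AA library (2.23 ± 0.483). MYH11 was not called by DESeq2. MYH14, non-muscle myosin IIC, fell from 658.3 to 121.6 CPM (-2.44 ± 0.15). MYH9, non-muscle myosin IIA and the most abundant of the 4, was at 1250.0 and 1114.0 CPM and was not called. With library totals the MYH14 call was lost and the sign of MYH9 turned, and with the length offset the MYH10 and MYH11 calls were lost and MYH9 was called lower (-1.73). The essential light chains MYL6 and MYL6B, which stabilise the lever arm of these motors, were both called lower, at log2 fold changes of -2.28 ± 0.14 and -1.92 ± 0.142, and neither call held with library totals or with either offset.

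Light chain phosphorylation is set by kinases and by myosin phosphatase. All 7 tested genes of this group were called, 3 higher and 4 lower, beside 28.6% and 17.6% of all tested genes. PPP1R12A and PPP1R12B, targeting subunits of the phosphatase, rose by log2 fold changes of 3.07 ± 0.244 and 4.22 ± 0.264, and its catalytic subunit PPP1CB by 1.77 ± 0.258. The other targeting subunit PPP1R12C fell (-2.16 ± 0.14), as did the inhibitors PPP1R14B (-3.00 ± 0.156) and PPP1R14C (-2.09 ± 0.165) and the kinase DAPK3 (-2.94 ± 0.146). PPP1R14A, the inhibitor CPI-17 of smooth muscle, was at 0 in all libraries. With length and GC content offsets the sign of PPP1CB turned, and only PPP1R12B and PPP1R14C of the 7 kept their calls.

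Upstream of the phosphatase, the kinases ROCK1 (log2 fold change 2.88 ± 0.252) and ROCK2 (3.20 ± 0.229) were called higher, while their activators RHOA (-1.64 ± 0.139) and RHOC (-2.22 ± 0.132) were called lower. RHOB was not called. With the length offset none of these 4 kept its call, and with length and GC content offsets the sign of RHOC turned. Among the regulators of transcription, MRTFB rose from 1.76 to 18.7 CPM and was called higher (3.39 ± 0.251). This call was lost at 1.12 with length and GC content offsets. SRF was at 94.3 CPM in parental and 32.9 CPM in KR-AA cells, with no overlap and a log2 fold change of -1.52 ± 0.166, under the 3-fold threshold, and DESeq2 called it lower. MRTFA (-0.66 ± 0.194) was not called, and its sign turned with library totals. MYOCD, the cofactor that specifies smooth muscle, had 3 counts in KR-AA replicate 2 and 0 in the other 5 libraries.

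Of the capping and crosslinking proteins, the tropomodulins TMOD2 (2.82 ± 0.541) and TMOD3 (2.15 ± 0.207) and the adhesion protein VCL (1.81 ± 0.166) were called higher, and the muscle filamin FLNC (-3.21 ± 0.219) lower. The calls of TMOD2, TMOD3 and VCL were lost with either offset, and the sign of TMOD3 turned with length and GC content offsets. Other genes of smooth muscle differentiation went both ways. SYNM, an intermediate filament protein, rose from 7, 7 and 9 counts to 1366.99, 1080.5 and 1094.02, and DES, desmin, fell from 71, 51 and 71 counts to 16, 8 and 11. SYNPO2, synaptopodin 2, had 0 counts in all parental libraries and 57 to 61 in KR-AA libraries, at least 8.74-fold above the floor of 3 counts per parental library.

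**Figure D4:**
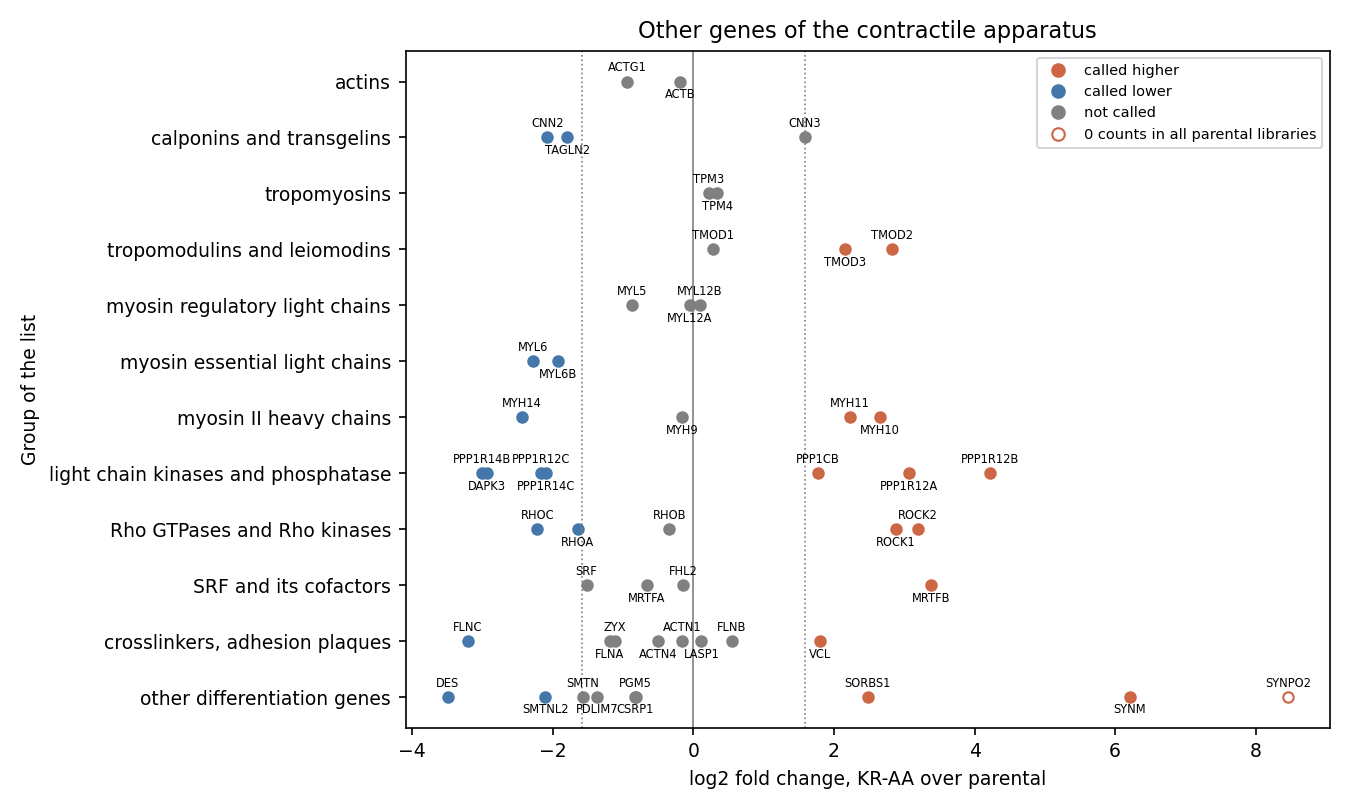
Log2 fold changes (KR-AA over parental) of the 52 tested genes of the list, by group, with genes called higher in orange, called lower in blue and not called in grey; dotted lines mark 3-fold. Of the 52, 14 are called higher and 14 lower, and 11 change sign with library totals, among them ACTB and MYH9; the open symbol marks SYNPO2, with 0 counts in every parental library.

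Several defining markers of smooth muscle were at or near 0 in both groups. The calls among markers stand beside 28.6% higher and 17.6% lower over all tested genes. Of 8 smooth muscle markers, ACTG2, KCNMB1, ITGA8 and PLN had at most 3.4 counts in any library, and of the other 4, MYH11 and SYNPO2 were called higher, DES lower and SMTN was not called. The summed level of the 8 was 102.3 to 123.2 CPM in parental and 37.2 to 41.0 CPM in KR-AA libraries, nearly all of it SMTN, with means of 106.5 and 35.9 CPM. The cardiac and skeletal markers MYH6 and ACTC1 were at 0 and MYH7 had at most 2 counts, yet TNNC1 (4187, 5202 and 3937 against 569, 442 and 448 counts) and TNNI3, troponin genes of striated muscle, were present in parental cells and called lower, as MYL2 was. The list of 12 striated markers held 3 that could be tested, 1 higher (TTN) and 2 lower, and summed to 291.9 to 456.6 CPM in parental and 21.1 to 22.5 CPM in KR-AA libraries.

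Markers of other cells also differed between the groups. Their calls too stand beside 28.6% higher and 17.6% lower over all tested genes, and are a description. Of 14 epithelial or colonic markers 13 were tested, 8 were called lower and 1, CDH1, higher, and their sum went from 58940 to 81100 CPM in parental to 9427 to 11010 CPM in KR-AA libraries. Most of that sum was KRT8, KRT18 and KRT19, with means of 37340, 18420 and 11430 CPM in parental cells. In KR-AA cells these means were 4450, 2534 and 1738 CPM. EPCAM (log2 fold change -0.863), ELF3 (-0.507), KRT20 (-0.546) and ESRP1 (0.58) were not called. Of 12 fibroblast or mesenchymal markers 8 were tested and 6 were called higher, with sums of 7.71 to 10.3 CPM against 6313 to 7225 CPM, carried by VIM and FN1, while PDGFRA was at 0 and COL1A2, THY1 and POSTN had at most 2 counts in any library. The endothelial markers summed to at most 3.08 CPM and the blood markers to at most 6.84 CPM in any library, the latter nearly all CD14. In libraries of whole cultures, fewer cells of a type and less RNA per cell cannot be told apart, and the part of these markers in the values of the contractile genes was not tested.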

How the data were processed

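RNA from DLD1 parental and p85β KR-AA cells was sequenced as paired ends with a kit that does not mark strand. SeqPrep and Sickle had trimmed the reads, and the submitters' processing notes name HISAT2 2.1.0, RSEM 1.3.1, DESeq2 1.24.0 and the build hg18. The authors deposited estimated counts (expected counts, not normalized) for 58884 Ensembl genes and a length per gene, and all columns were used. Ensembl identifiers were looked up in GENCODE release 44 (GRCh37 lift) for symbols and positions, which 56745 genes had. The annotation used for counting is not given in the sources used here.

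The design assumed whole counts, so the estimated counts were rounded. Genes were filtered with filterByExpr (minimum count 10, minimum total 15) and tested with the edgeR 4.0.16 quasi-likelihood test with TMM factors in R 4.3.3, all 6 libraries in the fit, with Benjamini-Hochberg adjustment over 16059 genes. Genes were called at 3-fold or more with adjusted p below 0.01, as in the study. CPM values include the TMM factors, and levels per length are CPM per kilobase. Libraries held 20301396 to 26712816 counts. The chi-square per degree of freedom between replicate pairs was 4.37 to 39.4, above sampling noise, so that the libraries are not copies of each other. It cannot show whether they came from separate cultures, as libraries made again from the same culture could also differ. Ratios with 1 to 3 counts per group carry exact 95% intervals that cover counting error only.

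Alternatives were DESeq2 1.42.0, library totals, no filter, a filter of 10 counts in every library, a block for replicate number, leaving out each library, fold change 2 with adjusted p 0.05, the fold change tested against 3, and offsets for length and GC content (robust splines with 5 degrees of freedom per library, MASS). The fits were tested on simulated data. Promoter windows are from RefSeq (GRCh38.p14). Figures were drawn with matplotlib in Python.

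The members and the gene lists were chosen with earlier results of these data known. Of the lists, all 73 contractile genes and 56 of 57 markers matched a row; PECAM1 did not. The text names all members, nearest paralogs, myosin II heavy chains, SRF and its cofactors, and from the other groups any gene beside the group's counts.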

Additional observations from a re-analysis of the deposited data

How the results depend on the processing

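Members called lower were 3 to 5 under all alternatives: 3 with the length and GC content offsets, which lost TAGLN, 3 with at least 10 counts in every library, where MYL2 was not tested, and 5 without a filter, where CNN1 was tested. Members called higher, 1 in the comparison reported, were 4 with library totals, 3 without a filter, 2 with at least 10 counts in every library, 2 with the replicate number as a block, 2 with the length offset and 3 at fold change 2 and adjusted p 0.05. With each library left out they were 1 to 3. The log2 fold change of TPM1 turned positive with library totals (0.868), at least 10 counts in every library (0.142), the length offset (0.669) and the length and GC content offsets (0.04). No other tested member changed sign. List genes called higher, 14 in the comparison reported, were 7 with the length offset (6 of them among the 14) and 5 with length and GC content offsets (4 of them). Those called lower, also 14, were 4 with library totals and 5 with length and GC content offsets, all among the 14. Over all genes, 7050 were higher and 976 lower with library totals (87.8% higher among those called, against 61.9%), 2796 and 972 with both offsets (74.2%), and 2974 and 1779 when the fold change was tested against 3. Genes called higher were 2898 with at least 10 counts in every library, and genes called lower 4289 at fold change 2.

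Same-numbered libraries did not deviate together (correlations of -0.204, 0.175 and -0.058), so the numbers are not taken as pairs. With the replicate block 4626 genes were higher and 2827 lower, and LMOD1 became called. Shares on raw counts in place of counts per kilobase kept the direction of TPM2, MYL9 and MYL2. Depth limits CNN1, LMOD1, MYL2, MYLK, ACTA2, CALD1 and TAGLN, with under 100 counts in every library of at least a group.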
